A study of Mus musculus with 48 samples.

Results

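HA magnetic beads, which carry an antibody against the HA peptide tag, were used in this study to recover RNA together with HA-tagged Tnrc6a from lysates of mouse embryonic stem cells. The libraries described here come from cells that carry no HA tag on Tnrc6a, so that the RNA on the beads is what they recover from a lysate without their intended target. Members were chosen by their labels: 12 of the 48 libraries of the series were from untagged cells, with 3 inputs (total lysate RNA) and 3 immunoprecipitates (IPs) in each of experiments 3 and 4. Inputs and IPs 1 to 3 belong to experiment 3, and inputs and IPs 4 to 6 to experiment 4. The study asks which RNAs are bound with Tnrc6a, and the untagged cells show which RNAs come down when no tag is present.

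The untagged cells were of strain 129S6/SvEvTac, with a GFP reporter labelled yGlob GFP_5xT71BS and a stably transfected FLAG-Cas9::T2A::Blasticidin construct, and the labels give that transfected reporter line in the culture protocol of all groups. The tagged genotypes used for comparison were HA-AVI-Tnrc6a, HA-AVI-Tnrc6a with Ago2-/-, and HA-AVI-Tnrc6a with Upf1-/-, with 12 libraries each over the same experiments. How many clones stand behind a genotype is not given in the sources used here. Cells were cultured in medium with serum and LIF on gelatin, lysed in NP-40 buffer with RNase inhibitor, and the lysates were cleared before the same protein amount went onto the beads. Dishes were grown in triplicate, and p-values measure the spread between these libraries, which may be technical.

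In an RNA immunoprecipitation, beads retain a target protein and the RNAs bound to it, along with whatever else the beads hold. Cells without the tag measure that remainder. The HA antibody recognises a short peptide from influenza haemagglutinin. The RNA classes followed here include small nucleolar RNAs (snoRNAs), which guide chemical modification of ribosomal RNA, nuclear long noncoding RNAs, and mRNAs grouped by the function of their protein.

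The total count was 15383953 to 18515659 in untagged inputs and 12752516 to 15286501 in untagged IPs of experiment 3, and 26458831 to 34758102 and 25966222 to 32328441 in experiment 4. The libraries carried the markers of embryonic stem cells: the 16 pluripotency markers together reached 7850 to 10700 CPM (counts scaled to a common library size) per library, while the markers of endoderm (9 genes in the table), mesoderm (8), neural cells (6) and fibroblasts (5) together reached 8.65 to 115 CPM per list. These marker sums are scaled by library totals alone. All other CPM are scaled by trimmed mean of M-values (TMM) over the 12 untagged libraries, and serve to compare 1 gene between libraries. The labels name no spike-in, so every IP-over-input ratio is relative to the other RNAs of the same library. The total amount of RNA on the beads is therefore not known. Tnrc6a mRNA, which the tag sits on in the other genotypes, was at 73.5, 80.7 and 81.5 CPM in the untagged inputs of experiment 3 and at 58.8, 81.5 and 79.6 CPM in its IPs. In experiment 4 it was at 92.9, 93.1 and 104 CPM in inputs and 104, 94.3 and 107 CPM in IPs. Input and IP values of Tnrc6a overlapped in both experiments, with a log2 IP-over-input ratio of -0.01 ± 0.07 (SE; 3 libraries in each group; adjusted p = 0.9 in edgeR's quasi-likelihood test).

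A small set of mRNAs, led by Bcar1 and Trp53bp1, was recovered far above its input level. snoRNAs and several of the transcripts that host them were also above input, and mRNAs of splicing factors, chromatin proteins and mitotic proteins were above it by less. Mitochondrially encoded mRNAs were below their input level. In the average of the experiments 6892 of 19299 genes (35.7%) had an adjusted p under 0.05, 3465 (18%) of them higher in IP than in input and 3427 (17.8%) lower. The sizes were uneven: 632 genes (3.27%) were higher by at least 2-fold and 59 (0.306%) lower by at least 2-fold. At least 4-fold, 88 were higher and 5 lower, and 13 were higher by at least 16-fold. The median log2 ratio over all genes tested was -0.03. With library totals in place of TMM that median moved to -0.20 and the split became 1997 higher and 7559 lower, so ratios near 0 depend on the scaling, and all ratios are read against the median of all genes. The 632 genes comprised 303 protein-coding genes, 132 with no match in the reference annotation, 86 snoRNA and scaRNA genes, 59 long noncoding RNAs, 37 pseudogenes, 11 microRNA genes and 4 others.

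The 12 protein-coding genes with the largest average ratio among those past the threshold, of the same sign in both experiments and with a mean log2 CPM of at least 3, were Bcar1, Trp53bp1, Rab11fip5, Efs, Gpr179, Tubgcp4, Cenpf, Nedd9, Fip1l1, Magel2, Incenp and Atad2. Their values choose them, so their sizes in these libraries are a description. Together they took 14.7%, 11.1% and 14.2% of all counts in IPs 1 to 3 and 3.48%, 1.74% and 3.54% in IPs 4 to 6. In the 6 untagged inputs they took 0.0674% to 0.0853%. Every IP lay above every input.

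Bcar1, Efs and Nedd9 of the Cas family of docking proteins stood among these mRNAs. Cas proteins are adaptors of integrin and Src signalling, and carry a substrate domain with repeated tyrosine motifs that bind SH2 domains once phosphorylated. Bcar1 (p130Cas, ENSMUSG00000031955, chromosome 8, 111710474 to 111743849, minus strand, RefSeq annotation of GRCm38.p6) was at 51.2, 50.2 and 53.7 CPM in the inputs of experiment 3 and at 94400, 54600 and 73000 CPM in its IPs. In experiment 4 Bcar1 was at 77.1, 80.7 and 84.1 CPM in inputs and at 9750, 4500 and 10900 CPM in IPs. Bcar1 alone made up 4.82% to 7.88% of all counts in the IPs of experiment 3 and 0.467% to 1.12% in those of experiment 4. Its average log2 ratio was 8.59 ± 0.31, that is 1430-fold in experiment 3 and 104-fold in experiment 4. Efs (ENSMUSG00000022203, chromosome 14, 54916543 to 54926788, minus strand) was at 14.3, 12.5 and 14.5 CPM in inputs 1 to 3 and at 5760, 3730 and 4450 CPM in IPs 1 to 3. Efs inputs 4 to 6 were at 21.0, 19.8 and 20.4 CPM and IPs 4 to 6 at 437, 213 and 457 CPM, and the average log2 ratio was 6.29 ± 0.25. Nedd9 (ENSMUSG00000021365) was scarce in the lysates. Its inputs held 0.375, 0.812 and 0.244 CPM in experiment 3 and 0.315, 0.615 and 0.569 CPM in experiment 4. The IPs held 46.2, 31.7 and 34.8 CPM and 3.72, 2.22 and 3.25 CPM of Nedd9, an average log2 ratio of 4.40 ± 0.21. Cass4, the remaining Cas gene, did not share this. It was at 0.913 to 3.09 CPM in the 6 inputs and at 0.866 to 2.43 CPM in the 6 IPs, which overlapped, with a log2 ratio of -0.16 ± 0.24 (edgeR quasi-likelihood adjusted p = 0.638). Cass4 was looked up because of its family, after the other values were seen.

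Trp53bp1 (53BP1, a chromatin reader of DNA double-strand break repair, ENSMUSG00000043909, chromosome 2, 121194835 to 121296354, minus strand) was at 68.4, 79.2 and 71.5 CPM in inputs 1 to 3 and at 36300, 32700 and 43000 CPM in IPs 1 to 3. In experiment 4 it was at 83.6, 79.5 and 86.2 CPM in inputs and at 17100, 8530 and 16500 CPM in IPs. The average log2 ratio of Trp53bp1 was 8.20 ± 0.23, 511-fold in experiment 3 and 169-fold in experiment 4. In experiment 4 it was above Bcar1, and in experiment 3 below. Tubgcp4, a subunit of the gamma-tubulin ring complex that nucleates microtubules, overlaps the end of Trp53bp1 by 3936 bases on the other strand. Its inputs were at 43.7 to 54.1 CPM, its IPs at 2470 to 3580 CPM in experiment 3 and at 656 to 1280 CPM in experiment 4, an average log2 ratio of 5.19 ± 0.20. Whether counting used strand is not given in the sources used here, so reads of Trp53bp1 and Tubgcp4 may not be told apart. Map1a overlaps the start of Trp53bp1 by 6765 bases and had a log2 ratio of -0.64.

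Rab11fip5, a Rab11 effector of recycling endosomes (ENSMUSG00000051343, chromosome 6, 85334962 to 85374684, minus strand), was at 7.57, 7.81 and 6.90 CPM in the inputs of experiment 3 and at 3800, 3000 and 3710 CPM in its IPs. It was at 9.35, 9.31 and 8.67 CPM in the inputs of experiment 4 and at 164, 82.7 and 183 CPM in its IPs, and averaged 6.43 ± 0.23 on the log2 scale. The microRNA gene Mir705 lies inside Rab11fip5 and was at 0 CPM in all 6 inputs, at 1.65, 1.42 and 1.09 CPM in IPs 1 to 3, and at 0.03, 0 and 0.0706 CPM in IPs 4 to 6. Reads over Mir705 cannot be separated from those of its host. Gpr179, known as an orphan receptor of retinal bipolar cells, was at 0.867 to 1.71 CPM in the 6 inputs. Its IPs held 374, 285 and 374 CPM in experiment 3 and 22.6, 12.4 and 22.8 CPM in experiment 4, an average of 5.93 ± 0.21. Magel2, an imprinted gene for a protein of endosomal recycling, was likewise scarce, with 0.813 to 1.54 CPM in inputs. The IPs of Magel2 were at 88.6, 51.3 and 77.1 CPM and at 6.48, 3.67 and 8.40 CPM, an average of 4.33 ± 0.25. Gpr179, Magel2 and Nedd9 were thus near 1 CPM in the lysate. The minimum mean log2 CPM of 3 was taken over inputs and IPs, and these genes met it only through their IPs. Genes as scarce but without high IPs could not enter the group, so nothing is read from their presence.

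Cenpf and Incenp encode proteins of the centromere. Cenpf, a large coiled-coil protein of the kinetochore, was at 160, 186 and 184 CPM in inputs 1 to 3 and at 14000, 13300 and 17900 CPM in IPs 1 to 3. Its inputs 4 to 6 were at 203, 204 and 209 CPM and IPs 4 to 6 at 3330, 1860 and 3580 CPM, which gave 5.12 ± 0.19. Incenp, the scaffold of the chromosomal passenger complex that holds Aurora B, was at 160, 159 and 174 CPM in inputs against 6090, 7730 and 9550 CPM in IPs of experiment 3. In experiment 4 Incenp was at 146, 154 and 157 CPM against 579, 365 and 724 CPM, for an average of 3.72 ± 0.19. Fip1l1, a subunit of the machinery that cleaves and polyadenylates mRNA ends, was at 98.8, 90.5 and 93.8 CPM in inputs and 10100, 6250 and 6780 CPM in IPs of experiment 3. Its inputs in experiment 4 were at 88.2 to 98.5 CPM and its IPs at 302 to 589 CPM, an average of 4.35 ± 0.21. Lnx1, which overlaps Fip1l1 by 6344 bases on the other strand, had 2.01 ± 0.12. Atad2, a bromodomain ATPase of chromatin, was at 46.0, 58.4 and 59.6 CPM in inputs and 1210, 1920 and 2310 CPM in IPs of experiment 3, and at 65.5 to 96.7 CPM and 266 to 410 CPM in experiment 4. It averaged 3.60 ± 0.21, and Lama4, a laminin chain next in the order and outside the group, 3.58.

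All 12 had IPs above inputs with no overlap in either experiment. Over all genes tested 9.79% had this (8.33% in the lower direction), but the choice of the 12 by ratio in these libraries favours it, so nothing is read from the count. IP 5 was the lowest of experiment 4 for 12 of 12 genes, and IP 2 the lowest of experiment 3 for 10 of 12. In experiment 4 the 12 genes thus shared their lowest IP. In experiment 3 they were less alike, and the highest was IP 1 for 7 genes and IP 3 for 5. The 12 genes had lengths of 2917 to 16023 bases, with a median of 7385, beside a median of 4336 over protein-coding genes tested.

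**Figure D1:**
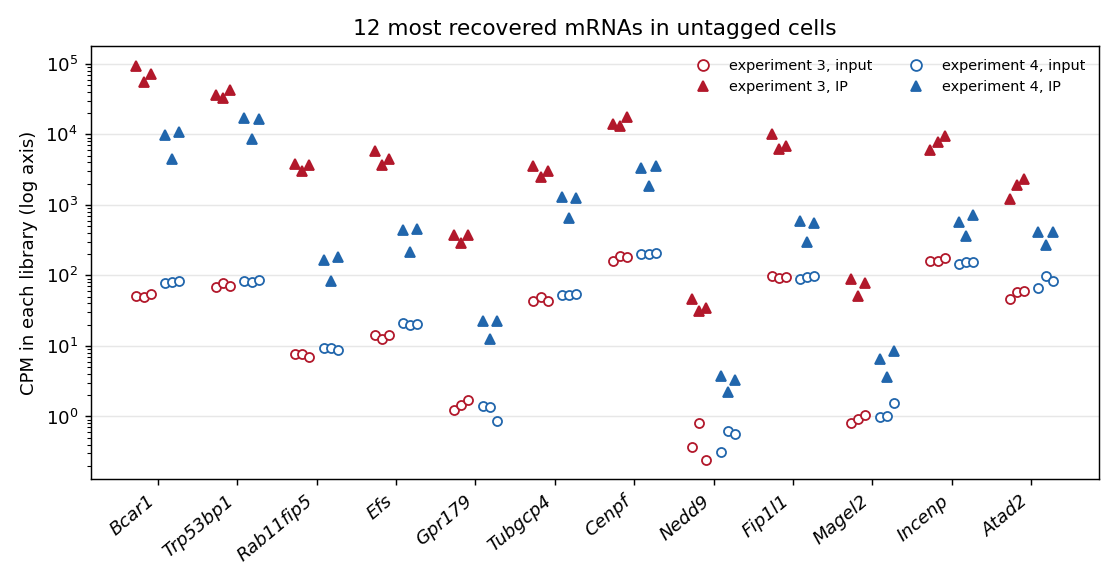
CPM (log axis) of the 12 most recovered mRNAs in each of the 12 untagged libraries; open circles are inputs, filled triangles IPs, red experiment 3 and blue experiment 4. For every gene the IPs lie above the inputs, from 2.22 CPM for Nedd9 in IP 5 to 94400 CPM for Bcar1 in IP 1, and the IPs of experiment 3 lie above those of experiment 4.

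Background recovery differed between the experiments for part of these RNAs. In experiment 3 alone 2157 genes (11.2%) were higher and 1431 (7.41%) lower, and in experiment 4 alone 2621 (13.6%) and 2789 (14.5%). With library totals these became 985 and 7434 in experiment 3, and 2227 and 3587 in experiment 4. Across all 19299 genes the 2 sets of log2 ratios had a Pearson correlation of 0.536, and of 0.714 over the 10857 genes with a mean log2 CPM of at least 3. The points are genes, which share their libraries and are no replicates. Of all genes tested, 6326 were positive and 7290 negative in both experiments. Among the 6892 past the threshold of the average, which favours a shared sign, 6735 had one. A test of the difference between the experiments passed for 552 genes (2.86%), 256 (1.33%) higher in experiment 4 and 296 (1.53%) lower. With library totals it was 2007 higher and 154 lower.

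Each of the 12 mRNAs was among those lower in experiment 4 by that test. Bcar1 had 10.48 in experiment 3 and 6.70 in experiment 4 on the log2 scale, a difference of -3.78 ± 0.46 (edgeR quasi-likelihood adjusted p = 0.00386). Trp53bp1 had the smallest difference of the 12, -1.60 ± 0.34 (adjusted p = 0.0482). The 5 largest drops among well-measured genes were those of Rab11fip5, at -4.90, Dnttip2, at -4.23, Efs, at -4.22, Fip1l1, at -4.01, and Magel2, at -3.91. Dnttip2, a nucleolar protein, was at 22.9, 35.2 and 31.9 CPM in inputs 1 to 3 and at 1020, 1210 and 1490 CPM in IPs 1 to 3, but at 55.9 to 87.3 CPM in inputs 4 to 6 and 146 to 184 CPM in IPs 4 to 6. The 5 largest differences the other way were smaller: Gm14412 1.59, Gm48222 1.56, Gm37376 1.46, Zfp997 1.34 and Gm48035 1.33. Depth was lower in experiment 3, and the TMM factors of its IPs were 0.8348 to 0.8829 beside 1.023 to 1.08 in the other untagged libraries. Experiment and depth cannot be told apart.

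Ankra2, Zcrb1 and Fam174a were picked, after their values were seen, for nearly the same ratio in both experiments. Ankra2, an ankyrin repeat protein, was at 19.2, 23.0 and 22.1 CPM in inputs and 224, 229 and 230 CPM in IPs of experiment 3, and at 17.1, 15.2 and 14.9 CPM and 203, 132 and 150 CPM in experiment 4. Its log2 ratios were 3.40 and 3.36. Zcrb1, an RNA-binding protein of the minor spliceosome, had 2.27 and 2.31, and Fam174a 2.15 and 2.08. Akap9, a scaffold for protein kinase A at the centrosome and Golgi, had 2.35 and 3.35, the larger value being in experiment 4.

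**Figure D2:**
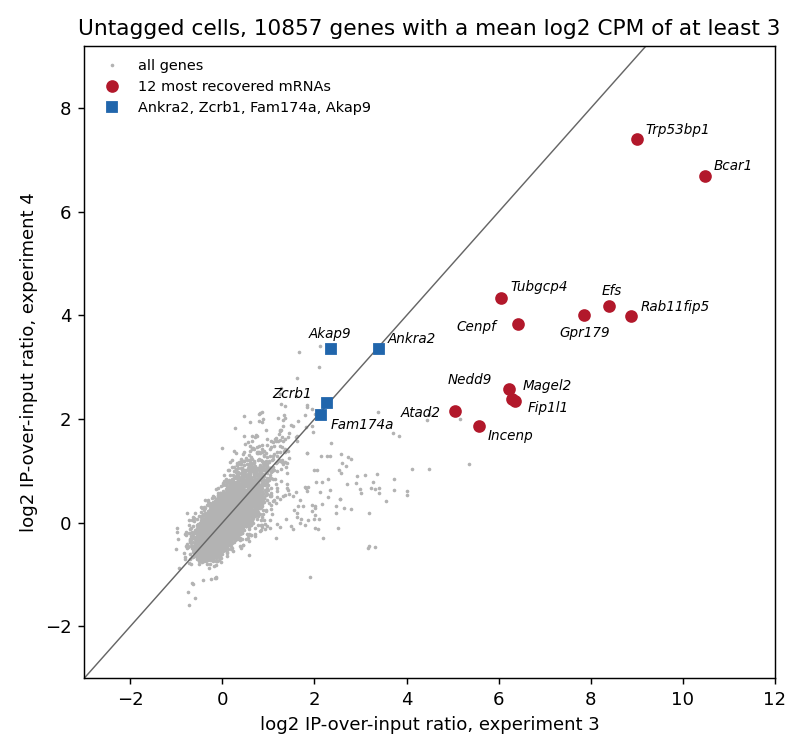
Log2 IP-over-input ratio in experiment 3 (x axis) against experiment 4 (y axis) for the 10857 genes with a mean log2 CPM of at least 3; the line marks equal ratios. The 12 most recovered mRNAs (red) lie below the line, with Bcar1 at 10.48 and 6.70, while Ankra2 (3.40 and 3.36), Zcrb1 and Fam174a (blue) lie near it and Akap9 (blue, 2.35 and 3.35) above it.

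Most small nucleolar RNAs had a positive ratio in both experiments, but fewer passed the threshold within each. Of 135 snoRNA and scaRNA genes tested, 107 were higher in IP, none was lower, and 86 were higher by at least 2-fold, with a median log2 ratio of 1.23 (all genes, -0.03). Over all genes tested 18% were higher, 17.8% lower and 3.27% higher by at least 2-fold. The median was 1.10 in experiment 3 and 1.44 in experiment 4. Within experiment 3, 57 passed as higher (11.2% of all genes tested), and within experiment 4, 95 did (13.6%). For 65 the IPs lay above the inputs with no overlap in either experiment, beside 9.79% of all genes tested. A positive ratio in both experiments was seen for 122 of the 135, beside 6326 of all 19299 genes. They took 0.0168% to 0.0178% of counts in inputs 1 to 3 against 0.0291% to 0.0314% in IPs 1 to 3, and 0.0133% to 0.0135% against 0.0363% to 0.0472% in experiment 4. Every IP was above every input. Snord47, a box C/D snoRNA inside Gas5, was at 3.82, 2.74 and 3.66 CPM in inputs and 17.9, 13.5 and 11.9 CPM in IPs of experiment 3. In experiment 4 Snord47 was at 1.72, 2.18 and 1.92 CPM in inputs and 19.5, 11.9 and 15.2 CPM in IPs, for an average of 2.55 ± 0.14 (edgeR quasi-likelihood adjusted p = 4.11e-11). Gm23246 had the largest ratio of the class, 2.58 ± 0.19. Snora73b had 0.84 ± 0.12. Snora15, one of the 2 most abundant of the class in inputs, was at 9.56 to 11.7 CPM in inputs and 7.05 to 11.6 CPM in IPs, which overlapped, with -0.21 ± 0.11 (adjusted p = 0.152). The genes were 60 to 275 bases long, and whether their reads came from the snoRNA or from the intron around it was not tested.

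Most snoRNA genes lie in introns of a host gene, from whose pre-mRNA they are cut. Of the 135, 131 lay inside a tested protein-coding or long noncoding gene, 66 hosts in all. The hosts had a median log2 ratio of 0.26, with 39 higher and 12 lower (all genes, 18% and 17.8%), and these snoRNAs a median of 1.24. For 121 of the 131 the snoRNA had the larger ratio. Rpl13a, for example, had 0.12 and the 4 snoRNA genes within it 1.39 to 1.81. Of a list of 24 host genes, coding and noncoding, 17 were higher and none lower, with a median of 0.53. Snhg1 was at 123, 116 and 110 CPM in inputs 1 to 3 and 326, 237 and 247 CPM in IPs 1 to 3, and at 91.5, 87.2 and 87.3 CPM against 426, 322 and 337 CPM in experiment 4. It had 1.62 ± 0.08 on the log2 scale, Zfas1 1.38 ± 0.07 and Gas5 1.34 ± 0.08. Coding hosts ranged from Rabggtb, at 1.31, and Taf1d, at 1.00, to the abundant Ncl, at -0.07, and Eef2, at -0.10, which did not pass the test (adjusted p = 0.212 and 0.0834). Among noncoding hosts Epb41l4aos had -0.02. Whether coding and noncoding hosts differ was not tested. Mir17hg, which hosts a microRNA cluster, and Chaserr, 2 long noncoding RNAs picked after their values were seen, had 1.70 ± 0.07 and 1.63 ± 0.08.

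**Figure D3:**
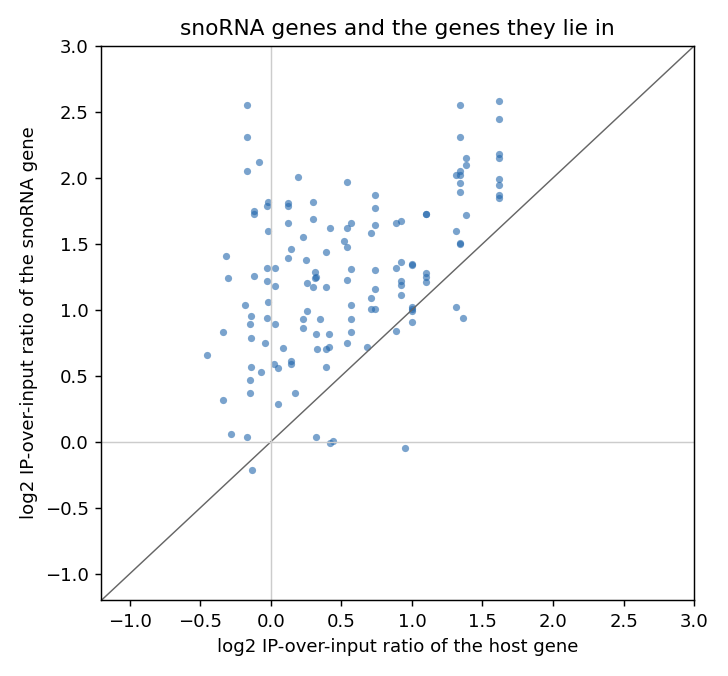
Log2 IP-over-input ratio of each snoRNA gene (y axis) against that of the gene it lies in (x axis), averaged over the experiments; the line marks equal ratios, and a snoRNA that lies in 2 tested genes is drawn for each. Most points lie above the line, 121 of 131 snoRNA genes when the host of larger ratio is used, and the column of points at 1.62 is Snhg1.

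Nuclear long noncoding RNAs were recovered in part. Of 15 tested on the list of this name, 9 were higher and 1 lower, beside 18% and 17.8% of all genes. The list median was 0.26. The lower one was Norad, whose place in the cell was not measured here. Malat1, a transcript of nuclear speckles, was at 170, 172 and 169 CPM in inputs and 194, 250 and 260 CPM in IPs of experiment 3, and at 134, 132 and 137 CPM against 484, 357 and 439 CPM in experiment 4. Its log2 ratio was 0.46 in experiment 3 and 1.67 in experiment 4, a difference that passed the test (edgeR quasi-likelihood adjusted p = 6.86e-05). Kcnq1ot1, an imprinted antisense transcript, had 1.09 ± 0.32, Rian, of an imprinted locus, 0.26 ± 0.05, and Meg3, of the same locus, 0.04 ± 0.06 (adjusted p = 0.605). Over all 1065 long noncoding RNAs tested, 203 were higher and 80 lower, with a median of 0.04.

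Most mRNAs for splicing factors with arginine and serine repeats were higher. Of 35 such genes 30 were higher (18% of all genes tested) and 1 lower (Srsf9), with a median of 0.43. Of the 35, 24 had no overlap between IPs and inputs in either experiment, beside 9.79% of all genes tested. Srsf2, an SR protein of splice-site choice, was at 474, 450 and 469 CPM in inputs and 1100, 1190 and 1170 CPM in IPs of experiment 3. In experiment 4 Srsf2 was at 459, 456 and 448 CPM against 1980, 1600 and 1800 CPM, with an average of 1.65 ± 0.05 (edgeR quasi-likelihood adjusted p = 2.50e-15). Pnn, a protein of the exon junction, had 1.09 ± 0.06 and Srrm2, the large scaffold of nuclear speckles, 0.34 ± 0.06. Srsf1 had 0.16 ± 0.04 and was at -0.01 with library totals. The heterogeneous nuclear ribonucleoproteins, also RNA-binding proteins of the nucleus, were mixed, with 9 of 28 higher, 6 lower and a median of 0.04 (-0.13 with library totals). Hnrnpdl was the largest, at 1.04 ± 0.06, and Hnrnpa3 and Hnrnpu, 2 of the most abundant, had 0.01 ± 0.04 and -0.05 ± 0.04.

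Chromatin remodellers and modifiers had 27 of 47 higher, 4 lower and a median of 0.27, and 11 were higher by at least 2-fold. Over all genes tested these shares were 18%, 17.8% and 3.27%. Atad2 led them, followed by Arid4a, a subunit of a histone deacetylase complex. Arid4a was at 15.5, 19.2 and 19.1 CPM in inputs and 203, 352 and 378 CPM in IPs of experiment 3, against 25.5, 27.1 and 23.7 CPM and 53.6, 47.4 and 55.5 CPM in experiment 4. It averaged 2.57 ± 0.15. Atad2b, the paralog of Atad2, had 2.18, Tet1, a 5-methylcytosine dioxygenase, 2.14, Ep400 1.82 and Atrx 1.81. Kdm5b and Chd4, among the most abundant of the list, had 0.26 ± 0.05 and 0.12 ± 0.05, and Arid1a, a subunit of the BAF remodeller, was lower, at -0.49. Jmjd1c, a gene of the histone demethylase family outside the naming rule, had 2.72 ± 0.08.

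Centromere, kinetochore and mitotic chromosome genes had 31 of 50 higher, 5 lower and a median of 0.24, beside 18% of all genes higher and 17.8% lower. After Cenpf and Incenp the largest was Mki67, the Ki-67 protein at the surface of mitotic chromosomes, at 2.76 ± 0.23. Mki67 was at 72.0, 105 and 96.4 CPM in inputs and 903, 1310 and 1720 CPM in IPs of experiment 3, and at 122, 162 and 157 CPM against 524, 302 and 580 CPM in experiment 4. Top2a, the topoisomerase of mitotic chromosomes, had 0.07 ± 0.05, and Rad21, a cohesin subunit, -0.05 ± 0.06; neither passed the test (adjusted p = 0.286 and 0.538). Centrosome and cilium genes had 23 of 46 higher, 3 lower and a median of 0.18, with Akap9 at 2.85 ± 0.24, Cep350 at 2.06 ± 0.18, and Odf2 and Cep192, abundant members, at 0.54 ± 0.04 and 0.33 ± 0.09. Nucleolar and ribosome biogenesis genes had 23 of 44 higher and 4 lower with a median of 0.15. Dnttip2 was at 3.25 ± 0.16 and Mphosph10 at 1.02 ± 0.05, but the abundant Npm1 and Ncl were at 0.02 ± 0.04 and -0.07 ± 0.04. With library totals the median of this last list was -0.02 and that of all genes -0.20.

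MicroRNA genes were recovered unevenly, with 15 of 61 higher (24.6%), 6 lower (9.84%) and a median of 0.14 (-0.03 with library totals). All genes tested had 18% higher and 17.8% lower. The miR-290 cluster, whose microRNAs dominate in mouse embryonic stem cells, lies on chromosome 7 (plus strand), and 4 of its genes were higher; they were picked after their values were seen. The 3p mature products are printed to show which of these genes share a seed (bases 2 to 8, in capitals), the stretch by which a microRNA selects its targets. The sequences, 5′ to 3′, and positions are from RefSeq, build GRCm38.p6.
mmu-miR-291b-3p (chr7:3219529-3219550): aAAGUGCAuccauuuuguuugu
mmu-miR-293-3p (chr7:3220390-3220411): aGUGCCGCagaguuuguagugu
mmu-miR-294-3p (chr7:3220691-3220712): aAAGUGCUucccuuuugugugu
mmu-miR-295-3p (chr7:3220815-3220837): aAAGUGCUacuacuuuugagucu
The seeds of miR-294-3p and miR-295-3p are the same, that of miR-291b-3p differs in its last base, and that of miR-293-3p is unlike these. The counts are those of whole genes of 69 to 84 bases, and whether the reads came from the mature RNA or from its primary transcript was not tested.

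Mir291b was at 2.88, 2.03 and 1.59 CPM in inputs 1 to 3 and at 9.01, 6.22 and 4.89 CPM in IPs 1 to 3, and at 3.64, 4.42 and 3.69 CPM against 9.05, 6.38 and 7.73 CPM in experiment 4. The average log2 ratio of Mir291b was 1.31 ± 0.16 (edgeR quasi-likelihood adjusted p = 1.58e-06). Mir295 had 1.31 ± 0.23, Mir294 1.29 ± 0.25 and Mir293 1.04 ± 0.31. Mir292, at 0.0626 to 0.623 CPM in inputs and 0.313 to 1.41 CPM in IPs, had 0.58 ± 0.39 and did not pass the test (adjusted p = 0.271). The 4 genes picked for being higher lie inside the long noncoding gene D7Ertd143e, and inside Nlrp12 on the other strand, which had 1.23. Their reads may not be told apart from those of these genes. Their ratios therefore cannot be related to their seeds, and this was not tested. Outside the cluster Gm25500 had 1.85 ± 0.41. It lies inside the snoRNA host Taf1d, which had 1.0, and reads of Gm25500 and Taf1d may not be told apart. Mir8094 and Mir686, the most abundant of the list in inputs, had -0.04 ± 0.09 and -0.10 ± 0.07.

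Loci that overlap ribosomal RNA and small RNAs made by RNA polymerase III had opposite signs in the 2 experiments. The first group held 5 genes. Gm42418 was at 661, 443 and 499 CPM in inputs and 3360, 9320 and 1840 CPM in IPs of experiment 3, IP 2 being far above the others. In experiment 4 Gm42418 was at 1020, 2330 and 1470 CPM in inputs and 1230, 1060 and 1260 CPM in IPs, which overlapped. CT010467.1 and AY036118 had nearly the same ratios as Gm42418, in experiment 3 (3.15 and 3.32 against 3.18) and in experiment 4 (-0.48 and -0.46 against -0.44). Gm26917 was positive in both, at 2.27 and 1.28, and Gm23935 had 0.58 and -0.36. In the average, 4 of the 5 passed and were higher, with a median of 1.37, but that median was 3.15 in experiment 3 and -0.44 in experiment 4. For Gm42418, with an average of 1.37, the call was lost in 6 of the 12 fits that leave out 1 library and in experiment 3 alone (adjusted p = 0.0711). Copies of ribosomal sequence share reads, so the 5 loci are not independent.

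The 6 polymerase III and RNP small RNAs were near the limit of detection. Rn7sk, which holds the elongation factor P-TEFb inactive, was at 1.19, 0.863 and 1.04 CPM in inputs and 5.33, 2.44 and 6.34 CPM in IPs of experiment 3. In experiment 4 it was at 1.37, 2.85 and 2.49 CPM in inputs and 0.57, 0.297 and 0.388 CPM in IPs. Neither experiment had overlap for Rn7sk, but the directions were opposite, with log2 ratios of 2.19 and -2.39 and a difference that passed the test (edgeR quasi-likelihood adjusted p = 1.52e-05). Rn7s1 and Rn7s2, the RNA of the signal recognition particle, had 2.20 and 2.18 in experiment 3 and -2.52 and -2.23 in experiment 4. The 2 gene entries named Rmrp, the RNA of RNase MRP, had 1.85 each in experiment 3, and -2.17 and -2.18 in experiment 4. Rpph1, the RNA of RNase P, had 0.49 and -2.01. In the average none of the 6 passed. By edgeR 3 of the 6 passed the test of the difference, all lower in experiment 4.

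Most mitochondrially encoded mRNAs were below input. Of 13 mitochondrial mRNAs 9 were lower and 1 was higher (ND6, at 0.35), beside 17.8% and 18% of all genes. Their median was -0.60, -0.38 in experiment 3 and -0.79 in experiment 4. CYTB, the cytochrome b subunit of the respiratory chain, was at 1540, 2370 and 2390 CPM in inputs and 1200, 1200 and 1370 CPM in IPs of experiment 3. In experiment 4 it was at 2100, 2130 and 2160 CPM against 801, 887 and 835 CPM, and its average was -1.04 ± 0.09 (edgeR quasi-likelihood adjusted p = 1.30e-06). COX3 was at 1840, 2010 and 1970 CPM in inputs and 1220, 1210 and 1280 CPM in IPs of experiment 3, and at 1740, 1700 and 1680 CPM against 713, 796 and 766 CPM in experiment 4. COX3 had -0.91 ± 0.04, as had Gm28437, a nuclear copy that shares its reads. ND4L had -1.40 ± 0.15, ND4 -1.02 ± 0.12 and COX1, the most abundant, -0.26 ± 0.06. The ribosomal RNAs of mitochondria differed from each other, with mt-Rnr1 at -0.76 ± 0.07 and mt-Rnr2 at 0.36 ± 0.06. Of 11 mitochondrial tRNAs 3 were lower and 1 higher, with a median of -0.68, and mt-Tp was among the lower, at -0.99 ± 0.18, and mt-Tl1 was the higher, at 0.80 ± 0.18. The share of counts from mitochondrial mRNA was 1.16% to 1.65% in inputs and 0.917% to 1.12% in IPs over both experiments.

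Averaged over the experiments, lists of abundant cytoplasmic mRNAs had medians near 0, with more members lower than higher in several. Cytosolic ribosomal protein mRNAs had 19 of 87 higher and 28 lower with a median of -0.07, beside 18% and 17.8% of all genes tested. In experiment 3 they had 23 higher and 10 lower (median 0.07), but 12 higher and 33 lower in experiment 4 (median -0.17). Rpl4 was at 3800, 3470 and 3440 CPM in inputs and 6260, 5870 and 5920 CPM in IPs of experiment 3, and at 2820, 2910 and 2880 CPM against 4650, 4500 and 4550 CPM in experiment 4. Its ratio of 0.71 ± 0.04 contrasted with Rps2, at -0.03 ± 0.05 (adjusted p = 0.693), and Rps27l, a paralog of Rps27, was at 1.04 ± 0.06. Nuclear-encoded respiratory chain mRNAs had 11 of 92 higher and 33 lower with a median of -0.12. Ndufa12 was at 1.05 ± 0.07, Atp5md at 0.69 ± 0.07, Atp5b at 0.07 ± 0.04 and Atp5a1 at 0.08 ± 0.04. In experiment 3 this list had 11 higher and 5 lower (median -0.02), but 8 higher and 44 lower in experiment 4 (median -0.23). Over all genes 11.2% were higher and 7.41% lower in experiment 3, and 13.6% and 14.5% in experiment 4. By the test of the difference 9 ribosomal protein genes and 9 respiratory chain genes were lower in experiment 4, and none was higher. Mitochondrial ribosomal proteins had 14 of 78 higher and 13 lower (median -0.02), with Mrps36 at 0.83 ± 0.07.

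Translation initiation factors had 10 of 59 higher and 18 lower (median -0.03), beside 18% and 17.8% of all genes tested. Eif4a2, a helicase of the initiation complex that hosts snoRNAs, was at 0.92 ± 0.06, and Eif4a1 at -0.03 ± 0.04. Elongation factors had 2 of 12 higher and 5 lower (median -0.06), with Eef1a1 at -0.30 ± 0.04. Proteasome subunits had 10 of 37 higher and 8 lower (median -0.01), with Psma7 at 0.77 ± 0.06. Cytosolic chaperones had 5 of 19 higher and 3 lower (median 0.00), with Hspd1 at 0.40 ± 0.04 and Hsp90ab1 at 0.13 ± 0.05. Genes of the translocon, glycosylation and folding at the endoplasmic reticulum had 5 of 30 higher and 11 lower (median -0.07). Those of matrix and secreted proteins had 5 of 21 higher and 3 lower (median 0.00), with Sparc lower, at -0.39 ± 0.10. Replication-dependent histones, whose mRNAs lack a poly(A) tail, had 7 of 54 higher and none lower (median 0.02). Golgins had 3 of 16 higher and 5 lower (median -0.04), kinesins 8 of 36 and 3 (0.03), and zinc finger genes 87 of 417 and 68 (0.00). In the average of the experiments the medians of these lists lay within 0.1 of that of all genes.

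Genes of the silencing machinery, the study's own subject, were not recovered from untagged cells above input as a group. Of 35 GW182, Argonaute and decay factors 7 were higher and 15 lower (all genes, 18% and 17.8%), with a median of -0.08. Ago2 mRNA was at 165, 227 and 236 CPM in inputs and 107, 166 and 158 CPM in IPs of experiment 3, which overlapped, and at 387, 344 and 353 CPM against 279, 300 and 294 CPM in experiment 4. It had -0.43 ± 0.11 (edgeR quasi-likelihood adjusted p = 0.00956). Tnrc6c had -0.41 ± 0.05, Tnrc6b -0.23 ± 0.09, Ago1 -0.20 ± 0.06 and Upf1 0.09 ± 0.05. The smallest were Ddx6, an RNA helicase of P-bodies, at -0.52 ± 0.08, and Trim71 at -0.50, and the largest was Cnot7, a deadenylase, at 0.67 ± 0.07. Pluripotency markers had 4 of 16 higher and 10 lower, with a median of -0.18. Utf1 was at 1.36 ± 0.06, Pou5f1 at -0.22 ± 0.05, Dppa5a at -0.36 ± 0.06 and Esrrb at -0.37 ± 0.04. Stem cell transcription factors, which share members with the markers, had 2 of 15 higher and 7 lower (median -0.12). Markers of endoderm had 3 of 9 higher and none lower (median 0.13), with Dab2 at 1.40 ± 0.09; of mesoderm none of 8 passed (0.06), of neural cells 1 of 4 was lower (-0.22), and of fibroblasts 1 of 5 was higher and 1 lower (0.22).

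Of protein-coding genes, 25 were lower by at least 2-fold, and all but CYTB and ND4 had a mean log2 CPM under 3. Among those of at least 3, the lowest beside the mitochondrial mRNAs follow. Fzd5, a Wnt receptor, was at 248, 219 and 218 CPM in inputs and 155, 134 and 147 CPM in IPs of experiment 3, and at 293, 287 and 284 CPM against 169, 192 and 184 CPM in experiment 4. It had -0.66 ± 0.05. Vash1, a tubulin carboxypeptidase, had -0.76 ± 0.12, Ebp, an isomerase of cholesterol synthesis, -0.75 ± 0.09, Ccnjl -0.75 ± 0.10, and Nova2, a neuronal splicing factor, -0.71 ± 0.08.

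**Figure D4:**
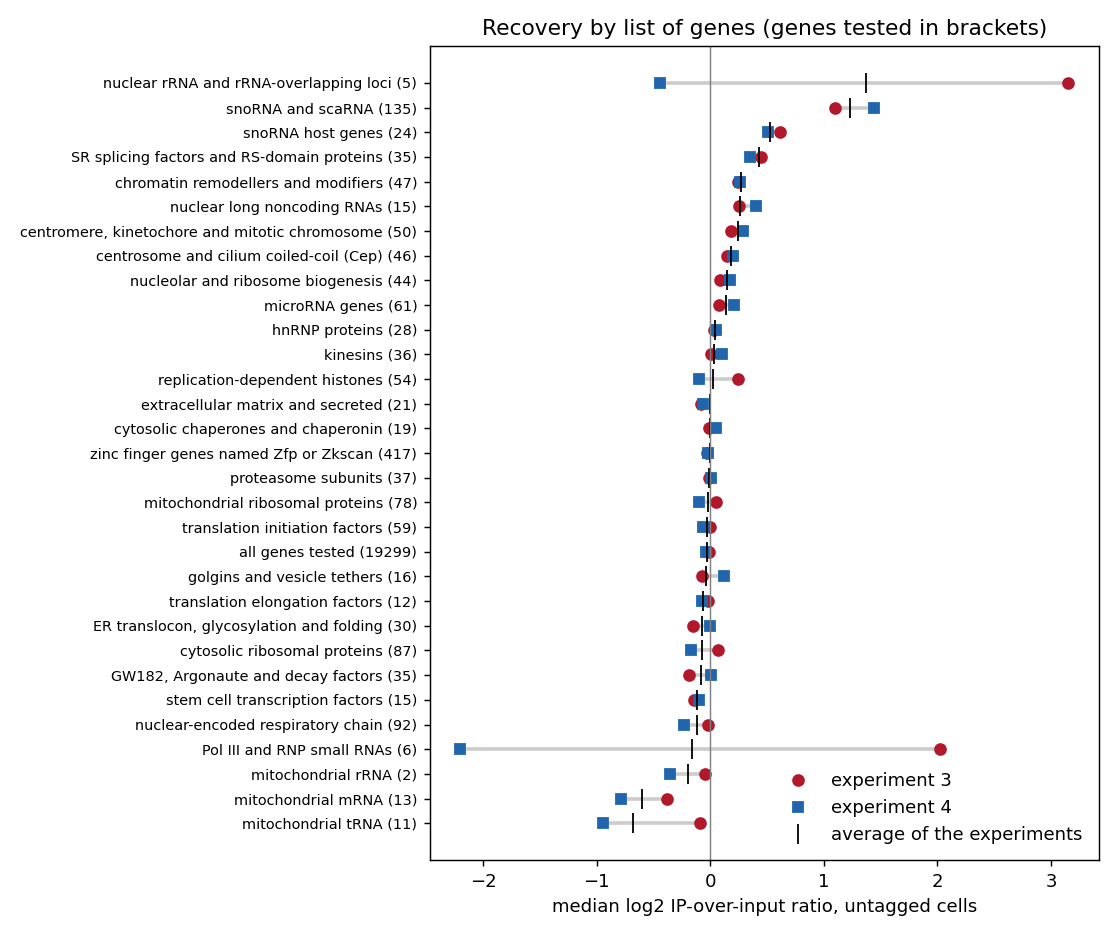
Median log2 IP-over-input ratio of each list of genes in untagged cells, in experiment 3 (red circles), experiment 4 (blue squares) and averaged (black bars), with the number of genes tested in brackets. snoRNAs have medians of 1.10 and 1.44, mitochondrial mRNAs -0.38 and -0.79, and the loci that overlap ribosomal RNA (3.15 and -0.44) and the small RNAs of polymerase III (2.02 and -2.20) change sign.

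Over 19299 genes the log2 ratio and the length deposited with the counts had a Spearman correlation of 0.0224, and the medians of 5 equal groups by length lay between -0.04 and -0.01. The share called higher was 15.1%, 16%, 16.6%, 19.7% and 22.4% from the shortest group to the longest. The share of genes higher by at least 2-fold was 6.32% in the shortest group (39 to 1305 bases), which holds the snoRNAs, 1.81% in the middle group and 3.21% in the longest (from 6487 bases).

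The tagged genotypes, whose libraries took no part in choosing the 12 mRNAs, gave another measurement of them. In HA-Tnrc6a cells all 12 were above input in a fit of those libraries alone (35.7% of 19467 genes tested were higher and 36.7% lower, 72.5% in all), and likewise in the Ago2-/- cells (36% of 19542 higher, 38.3% lower, 74.3% in all) and the Upf1-/- cells (34.5% of 19147 higher, 40.7% lower, 75.2% in all). Bcar1 had 8.28 ± 0.16 in HA-Tnrc6a cells, 7.95 ± 0.14 in Ago2-/- cells and 7.97 ± 0.23 in Upf1-/- cells, beside 8.59 ± 0.31 in untagged cells. The 12 took 4.09% to 6.59% of counts in HA-Tnrc6a IPs of experiment 3 and 1.60% to 2.29% in experiment 4. The 12 were thus above input in each of the 4 genotypes.

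A test of the difference between HA-Tnrc6a and untagged cells, over 24 libraries, passed for 12395 of 19993 genes (62%), 5955 higher with the tag (29.8%) and 6440 lower (32.2%). The split was 5121 higher and 7976 lower with library totals, and 6163 and 6041 without the 12 mRNAs. It was 5075 and 3857 in experiment 3 alone, and 5410 and 5934 in experiment 4 alone. The median of these 19993 genes was -0.10 in that test, which is relative to each library's other RNAs. The 12 mRNAs were chosen for high ratios in the untagged libraries that this difference subtracts, which favours negative values, so their differences are a description. Of the 12, 5 were lower with the tag and none higher: Cenpf, at -1.17 ± 0.20, Tubgcp4, at -1.15 ± 0.23, Trp53bp1, at -1.12 ± 0.23, Incenp, at -0.93 ± 0.20, and Atad2, at -0.59 ± 0.24. For Bcar1 the difference was -0.31 ± 0.28, for Rab11fip5 0.24 ± 0.29, for Fip1l1 0.19 ± 0.29, for Efs -0.30 ± 0.27, and for Nedd9 -0.10 ± 0.39. A difference that misses the threshold does not show that the genotypes were alike. These averages join opposite directions. In experiment 3 Bcar1 had 9.21 in HA-Tnrc6a cells and 10.48 in untagged cells, but 7.35 and 6.70 in experiment 4. Rab11fip5, Efs, Gpr179, Nedd9, Fip1l1 and Magel2 likewise were lower with the tag in experiment 3 and higher in experiment 4. Cenpf, Tubgcp4, Trp53bp1, Incenp and Atad2 were lower in both. The tests within a single experiment are used here only for the counts of genes above, and their results for single genes are not given.

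Over all genes in the test of this difference, 32.2% were lower with the tag and 29.8% higher, and the shares below stand beside these. Of the 135 snoRNA and scaRNA genes tested in untagged cells, 100 were lower with the tag and none higher. Their median difference was -1.35, and their median ratio in HA-Tnrc6a cells was -0.06. Snord47 had 1.10 in HA-Tnrc6a cells and a difference of -1.43 ± 0.30. The SR and RS-domain genes had 28 of 35 lower and 3 higher with the tag (median difference -0.67), with Srsf2 at -1.26 ± 0.08, and the snoRNA host genes 21 of 24 lower and none higher (-0.98). Malat1 had -1.35 ± 0.09. Of the mitochondrial mRNAs 12 of 13 were lower with the tag and 1 higher (-1.05), a ratio further below input than in untagged cells. The GW182, Argonaute and decay factors went the other way, with 24 of 35 higher and 8 lower (0.45). Of the 632 genes higher by at least 2-fold in untagged cells, 328 were higher past the threshold in HA-Tnrc6a cells. Over all genes tested in HA-Tnrc6a cells 35.7% were higher.

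**Figure D5:**
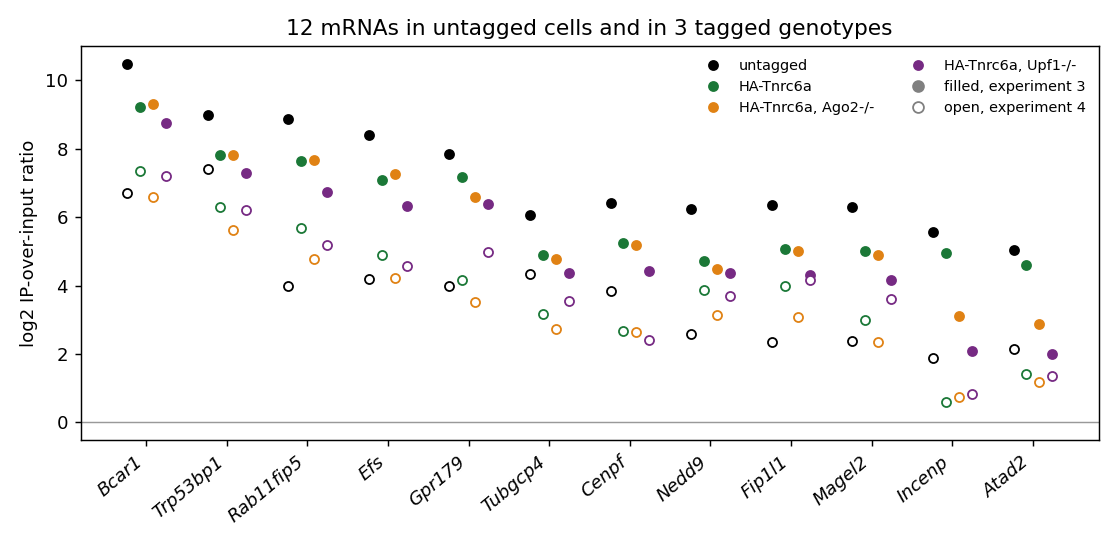
Log2 IP-over-input ratio of the 12 most recovered mRNAs in untagged cells (black) and in 3 tagged genotypes (HA-Tnrc6a green, with Ago2-/- orange, with Upf1-/- purple), filled in experiment 3 and open in experiment 4. All ratios lie above 0. In experiment 3 the untagged value is the highest of the 4 for each gene, from 10.48 for Bcar1 down to 5.05 for Atad2. In experiment 4 the HA-Tnrc6a value is above the untagged one for Bcar1, Rab11fip5, Efs, Gpr179, Nedd9, Fip1l1 and Magel2. It is below the untagged one for Trp53bp1, Tubgcp4, Cenpf, Incenp and Atad2.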

How the data were processed

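Stranded total RNA libraries of input and IP, per the labels' protocols, were counted per gene. The authors deposited raw counts per gene beside the gene length (another deposited column, in bases); they used bcl2fastq 2.20 and STAR 2.7.3a on GRCm38 (mm10), per the submitters' processing notes. The counting tool, annotation and strand setting are not given in the sources used here. Columns 4 to 6 were taken as experiment 4, and 48 other columns of per-sample values were not used. Counts were fitted with edgeR 4.0.16 (R 4.3.3, limma 3.58.1; robust quasi-likelihood, TMM, filterByExpr with a minimum count of 10), 1 coefficient per group, and IP minus input was averaged over experiments with equal weight; adjusted p (Benjamini-Hochberg, two-sided) under 0.05 was the threshold. SE is the log2 ratio over the root of F. In simulated counts, 112 of 112 genes changed by 1 and 88 of 88 by 2 on the log2 scale were recovered, with 19 calls (8.68%) outside the changed genes, above the 5% aimed at. The simulation gave every gene the same dispersion and changed only genes above a minimum mean count. Its recovery therefore does not speak for scarce or highly variable genes. DESeq2 1.42.0 was an alternative.

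Named genes were the series' own Tnrc6, Ago and Upf1 genes, the 12 protein-coding and 8 other genes of largest ratio per direction (mean log2 CPM at least 3), the 2 most abundant and 2 largest of each list, and the 5 per direction that differed most between experiments. Members and lists were chosen with earlier results of these data known. Mitochondrial mRNA, microRNA and snoRNA lists were redefined by annotation after the files were seen, and a spliceosomal RNA list without members was dropped. Outside the naming rule, chosen after their values were seen, were Cass4, Lnx1, Map1a, Lama4, Mki67, Jmjd1c, Gas5, Mir17hg, Chaserr, Norad, Srsf9, Arid1a, Atad2b, Tet1, Ep400, Atrx, Trim71, ND6, Rpl13a, Rabggtb, Taf1d, Epb41l4aos, Ankra2, Zcrb1, Fam174a, Nlrp12 and the miR-290 cluster. Gene biotypes (17958 of 20171 genes matched) and positions are from RefSeq (GRCm38.p6). GC content and protein composition were not analysed here. Alternatives were other scalings, no filter, a replicate block, each experiment alone, all 48 libraries in 1 fit, and leaving out each of 12 libraries; 2 were chosen after seeing the data, the fit without the 12 strongest mRNAs and the separate fits of tagged genotypes.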

Additional observations from a re-analysis of the deposited data

Results flagged for a closer look

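The difference between experiments passed the edgeR quasi-likelihood test for 552 genes. It was negative, that is lower in experiment 4, for each of the 12 most recovered mRNAs: on the log2 scale Bcar1 -3.78, Trp53bp1 -1.6, Rab11fip5 -4.9, Efs -4.22, Gpr179 -3.85, Tubgcp4 -1.71, Cenpf -2.58, Nedd9 -3.64, Fip1l1 -4.01, Magel2 -3.91, Incenp -3.7 and Atad2 -2.91. Dnttip2 was also lower, at -4.23, and Gm14412 1.59, Gm48222 1.56, Gm37376 1.46, Zfp997 1.34 and Gm48035 1.33 were higher.

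The difference between HA-Tnrc6a and untagged cells passed for 12395 genes, among them Trp53bp1 -1.12, Tubgcp4 -1.15, Cenpf -1.17, Incenp -0.93 and Atad2 -0.59, which were chosen for high ratios in the untagged libraries.

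For loci that overlap ribosomal RNA the median log2 ratio per IP was 2.64, 4.09 and 1.77 in IPs 1 to 3 and -0.42, -0.6 and -0.35 in IPs 4 to 6. For polymerase III RNAs it was 1.41, 0.31 and 2.31, and -1.81, -2.27 and -1.77. These medians had opposite signs in every IP of the 2 experiments, and the difference between medians was not tested.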

How the results depend on the processing

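At least 2-fold and past the threshold were 691 genes in the average, 560 in experiment 3, 734 in experiment 4, 142 for the difference between experiments and 4283 for HA-Tnrc6a less untagged. With library totals the medians were -0.77 for mitochondrial mRNA, 1.06 for snoRNAs, 0.36 for host genes, 0.06 for centromere, 0.09 for chromatin and 0.26 for SR genes, with 8419 calls in experiment 3 and 2161 for the difference; Srsf1 (-0.01), Kif20a (-0.01), Psmd1 (-0.01), Hsp90ab1 (-0.04), Chd4 (-0.05), Atp5b (-0.10), Npm1 (-0.15) and Hnrnpa3 (-0.16) changed sign. The difference had 1049 calls with all 48 libraries, 1748 with the replicate block and 975 with DESeq2, and 304 to 1010 when 1 library was left out (1010 without experiment 3 input 1). Experiment 3 alone gave 1972 calls, -0.37 for mitochondrial mRNA and 6.39 for the 12 mRNAs, with Gm37376 (-0.01), Psmd1 (-0.14), Chd4 (-0.02) and Rn7sk (2.19) changing sign. Experiment 4 alone gave -0.76, 1.49 for snoRNAs, 0.32 for centromere genes and 3.94 for the 12, with Zfp697 (-0.29), AY036118 (-0.43), Gm42418 (-0.41), CT010467.1 (-0.45), Psmd2 (0.21) and Utp15 (0.12) changing sign. The causes were not tested, except that single experiments and left-out libraries use fewer samples. The average had 5859 to 7507 calls when 1 library was left out, and 8019 under the replicate block. Replicate numbers are only shared: same-numbered inputs and IPs had correlations of 0.525, 0.271 and 0.317 in experiment 3, and 0.0485, 0.0406 and 0.0606 in experiment 4, and IP 3 correlated better with input 2 (0.385). Counts of RNAs below 1 CPM limit what can be detected. The authors' scaling factors were not run as an alternative, because their columns were not used.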
